A study of Mus musculus with 3 samples.

Results

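The regions described here are stretches of mouse DNA that were called open in cells expressing Halo-Sox2a and in control cells, and were not called open in cells expressing Halo-Sox2. They were found by merging the overlapping ATAC-seq peaks of 3 deposited peak lists, at 1 bp or more of overlap, into union regions on chromosomes 1 to 19 and X. The members were chosen by the presence of called peaks, with no score minimum added to the authors' calls. A region was kept when it held a peak of the Halo-Sox2a list and a peak of the Control list and none of the Halo-Sox2 list. This rule found 13441 of 130604 union regions, or 10.3%. Among the 55398 regions with a peak in both the Halo-Sox2a and the Control list, 24.3% lacked a Halo-Sox2 peak. The other 41957 had a peak in all 3 lists.

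Sox2 is a DNA-binding transcription factor of the SOX family that keeps embryonic stem cells pluripotent and often binds beside Oct4, the product of Pou5f1. It is described as a pioneer factor, because it can bind DNA wrapped on nucleosomes and is linked to the opening of enhancers. ATAC-seq marks open DNA by the insertion of adapters by the Tn5 transposase, and a peak is a place where insertions pile up above the surrounding signal.

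The study asked how chromatin accessibility differed between CGR8-derived mouse embryonic stem cells that expressed Halo-tagged Sox2, Halo-tagged Sox2a or no inducible transgene. The Halo-Sox2 cells were line SES4.1, given doxycycline at 300 ng/mL for 20 h. The Halo-Sox2a cells were line SES5.1, given doxycycline at 70 ng/mL for 20 h. In both, the tag was stained with 50 nM Halo-SiR dye, and cells were sorted through the same gate of dye intensity. The control cells were line SES11. The labels do not give their doxycycline, staining or sorting, and do not describe Sox2a. All lines were grown with serum, LIF and the inhibitors CHIR99021 and PD184352. About 50000 cells entered each reaction, and libraries were read as 75-bp pairs. Each group was 1 library from 1 line, so a difference between proteins, lines, doxycycline doses and libraries cannot be told apart, and no difference has a replicate check. No p-value is given.

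The lists held 72638 peaks for Control, 83995 for Halo-Sox2a and 88898 for Halo-Sox2, so the list from which these regions were missing was the longest of the 3. Each peak carries the authors' score, a whole number with a lowest value of 13 in every list and a median of 85.0, 101 and 149 in the same order. Scores were read only as ranks and percentiles within a list, with 100 as the highest. Read depth is unknown, so a region without a peak was not called there, which does not show that it was closed. Of 6 pluripotency markers, the Control list had a peak on a promoter window of 5, and each transgene list on 4. The promoter of Zfp42, a gene of naive pluripotent cells, was at percentile 99.8 for Control, 99.1 for Halo-Sox2a and 97.6 for Halo-Sox2. Other markers were less even. In the same order, Klf4 was at 81.3, 86.7 and 67.6, and Esrrb at 71.0, 60.2 and 61.7. The Sox2 promoter was at 64.5 for Control and 21.9 for Halo-Sox2, with no Halo-Sox2a peak. The windows of Pou5f1 had no peak in any list. Of 5 fibroblast markers, 3 had a promoter window in the table, and of these Col1a2 and Twist1 had a peak in every list and the window of Prrx1 had a peak with Halo-Sox2 alone. A member also lay 93 bp from the 5′ end of Prrx1, outside that window. Of 4 primitive endoderm markers, 1 had a window, Pdgfra, and no list had a peak there.

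Promoter sequences were read for the members that lay on promoters, to show what kind of promoter they were. The 4 on promoter windows with the highest mean percentile over the Halo-Sox2a and Control lists are printed first, each as the 250 bases before an annotated start of the gene, 5′ to 3′ on the gene's strand, from RefSeq GRCm38.p6. Capitals mark CpG dinucleotides. They are Plac8 at chr5:100572206-100572455 on the minus strand, Zfand6 at chr7:84679397-84679646 on the minus strand, Rgs12 at chr5:34998828-34999077 on the plus strand and the gene model Gm39858 at chr2:75633765-75634014 on the plus strand. The windows of Zfand6 and Rgs12 lie at starts inside the gene, over 1 kb from its ends. The last, Fbxo44 at chr4:148160095-148160344 on the minus strand, had a peak in all 3 lists. It was picked for contrast as the protein-coding promoter with the median CpG count of that class whose Control percentile, 85.6, was nearest to the 85.5 of Plac8.
Plac8: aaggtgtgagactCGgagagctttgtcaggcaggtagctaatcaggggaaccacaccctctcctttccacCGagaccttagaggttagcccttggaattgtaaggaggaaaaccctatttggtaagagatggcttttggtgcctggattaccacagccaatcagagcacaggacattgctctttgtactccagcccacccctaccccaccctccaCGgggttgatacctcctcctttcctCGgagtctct
Zfand6: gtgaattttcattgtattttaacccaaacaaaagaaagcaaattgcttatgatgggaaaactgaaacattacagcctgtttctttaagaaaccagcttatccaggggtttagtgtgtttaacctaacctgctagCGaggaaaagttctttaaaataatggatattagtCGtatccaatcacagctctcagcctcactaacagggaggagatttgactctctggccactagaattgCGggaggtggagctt
Rgs12: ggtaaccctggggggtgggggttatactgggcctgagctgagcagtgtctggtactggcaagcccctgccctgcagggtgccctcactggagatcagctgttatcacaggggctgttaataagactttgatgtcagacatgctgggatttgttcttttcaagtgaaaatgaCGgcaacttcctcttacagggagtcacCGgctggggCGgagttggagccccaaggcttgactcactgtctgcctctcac
Gm39858: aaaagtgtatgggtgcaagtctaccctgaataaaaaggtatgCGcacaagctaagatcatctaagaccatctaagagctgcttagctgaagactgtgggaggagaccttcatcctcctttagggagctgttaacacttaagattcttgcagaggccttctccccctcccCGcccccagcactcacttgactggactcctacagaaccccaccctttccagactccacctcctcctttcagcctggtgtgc
Fbxo44: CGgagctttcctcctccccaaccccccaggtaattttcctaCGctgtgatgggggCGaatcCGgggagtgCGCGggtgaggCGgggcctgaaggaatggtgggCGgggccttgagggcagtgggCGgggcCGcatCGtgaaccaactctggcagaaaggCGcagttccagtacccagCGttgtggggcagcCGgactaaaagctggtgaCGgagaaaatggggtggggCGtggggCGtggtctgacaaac
The 4 members held 4, 3, 3 and 2 CpG in these bases, and Fbxo44 held 17.

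A further member covered the promoter of Nanog, which encodes a homeodomain factor of naive pluripotency and is a known target of Sox2 and Oct4. It was picked after its values were seen, in the check of the marker genes. The 250 bases before the start of Nanog lie at chr6:122707239-122707488 on the plus strand of GRCm38.p6. Here capitals mark a match to the SOX-OCT motif, a SOX site followed by a POU site, read on the opposite strand.
Nanog: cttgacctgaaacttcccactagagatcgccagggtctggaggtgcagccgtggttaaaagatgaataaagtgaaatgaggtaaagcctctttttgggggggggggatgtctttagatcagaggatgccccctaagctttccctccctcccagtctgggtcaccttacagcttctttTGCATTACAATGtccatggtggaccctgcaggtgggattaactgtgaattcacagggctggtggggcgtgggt
The member spanned chr6:122706952-122707596, with a Halo-Sox2a score of 113 (percentile 54.7) and a Control score of 116 (percentile 63.6). It lay above the middle of both lists, and the nearest Halo-Sox2 peak was 3.10 kb away at percentile 37.2 of its list. Within 50 kb of Nanog, 3 of 12 regions shared by Halo-Sox2a and Control were members, a share near the 24.3% over all shared regions. Beside the promoter, 1 was nearest to the pseudogene Gm10420, at percentiles 52.6 and 27.1 in the Halo-Sox2a and Control lists, and 1 lay inside Slc2a3, a glucose transporter gene, at 44.0 and 60.9.

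The scores of the members are given as a description, since the lists that hold them also chose them. Their median percentile was 35.4 in the Halo-Sox2a list (quartiles 17.3 and 53.7) and 38.0 in the Control list (quartiles 22.5 and 55.3). Regions with a peak in all 3 lists had medians of 72.2 and 67.9 in those lists and 61.5 in the Halo-Sox2 list. Members therefore lay mostly in the lower part of both lists, with a tail into the upper part. Both percentiles were above 50 in 2307 members, above 75 in 274 and above 90 in 10. The Control percentile was the higher of the pair in 7218 members (53.7%). The merged regions had a median width of 492 bp for members (quartiles 377 and 643) and 843 bp for regions of all 3 lists (quartiles 625 and 1121). Merging peaks of more lists widens a region, so these widths are not matched. The classes that also merge a pair of lists had medians of 452 bp (missing only with Halo-Sox2a) and 565 bp (missing only in Control).

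**Figure D1:**
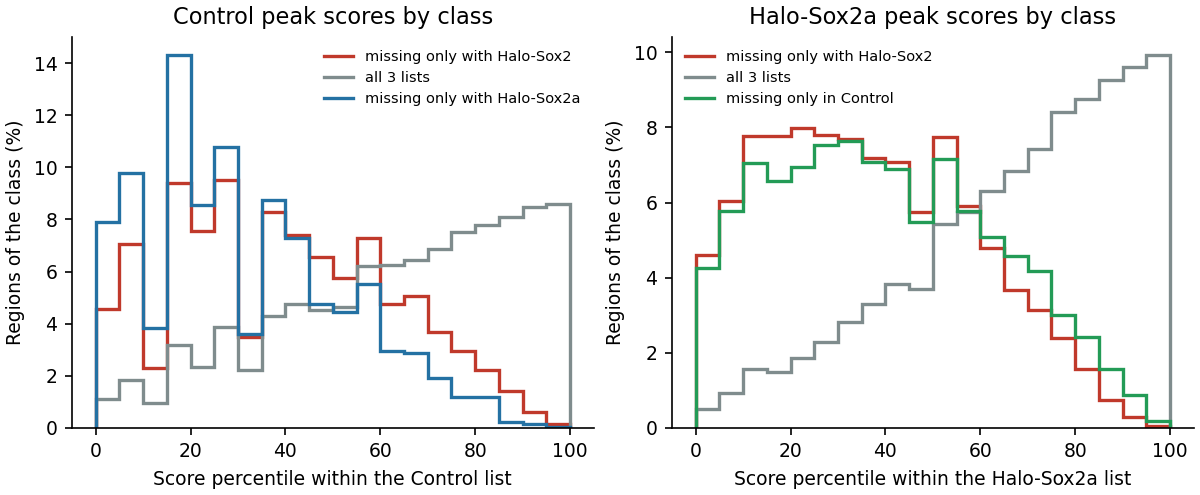
Distribution of score percentiles within the Control list (left) and the Halo-Sox2a list (right), as the percent of regions of each class in each percentile bin, with 1 line per class. The members are centred on medians of 38.0 and 35.4, below the regions of all 3 lists at 67.9 and 72.2.

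The peaks of the 2 lists lay on the same DNA in nearly all members. In 13296 members (98.9%) there was 1 peak of each list, and these overlapped over a median of 99.5% of the shorter peak. The overlap reached 50% of the shorter peak in 12580 (94.6%) of them. Most members were also well apart from any Halo-Sox2 peak. The gap to the nearest had a median of 7909 bp (quartiles 3204 and 18024) and ran from 2 to 602730 bp. It was at most 1 kb in 1091 members (8.12%) and at most 10 kb in 7762 (57.7%). Just inside the 1-bp rule, 23 members had a Halo-Sox2 peak within 50 bp, with median percentiles of 22.5 for Control and 25.9 for Halo-Sox2a. Just outside it, 24 regions of all 3 lists shared at most 50 bp with a Halo-Sox2 peak, with medians of 24.0 and 28.2.

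The opposite class, with peaks in Halo-Sox2 and Control and none in Halo-Sox2a, held 2483 regions, or 5.59% of the 44440 regions shared by Halo-Sox2 and Control. The class with peaks in both transgene lists and none in Control held 11691 regions, or 21.8% of the 53648 regions shared by Halo-Sox2 and Halo-Sox2a. Of the opposite class, 144 regions were above percentile 50 in both of their lists, 5 were above 75 and none was above 90. With 1 library per group, these counts compare 3 libraries. In an alternative setting, only Halo-Sox2a and Control peaks at percentile 50 or above were counted, beside all Halo-Sox2 peaks. The order of the member and opposite classes then turned over, with 2307 and 3557 regions. There, regions whose Halo-Sox2a peak is under that minimum enter the opposite class, while every Halo-Sox2 peak is kept. The order held with that minimum in every list, at 7785 and 961, and with lists of equal size, at 15241 and 2121. Those settings count dropped peaks of any list as missing.

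The members scored highest in both lists lay mostly away from protein-coding genes. The region with the highest mean percentile was chr10:11491625-11492239, with a Halo-Sox2a score of 762 (rank 1001) and a Control score of 958. That Control score ranked 59 of 72638 peaks, and no Halo-Sox2 peak lay within 6072 bp. Its nearest annotated gene was a snoRNA model, LOC115487525, 16953 bp away. The next was chr4:145863574-145864294, at percentiles 95.8 and 95.7 in the Halo-Sox2a and Control lists, 19203 bp from the pseudogene Gm13246. At chr1:110790484-110791112, 97204 bp from the cadherin gene Cdh19, the percentiles were 90.8 and 99.1. A member inside the zinc-finger gene Zfp988, chr4:147310209-147310769, was at 97.3 and 92.4. At chr5:13614252-13615069, 11176 bp from Sema3a, which encodes a secreted axon guidance protein, the percentiles were 95.2 and 94.3. The remaining 7 of the 12 highest were nearest to or inside Gm18518, Mir3961, Gm46835, Gm4322, Gm26510, Stag1 and Gm18870. Of those, Stag1, a cohesin subunit gene, was the 1 protein-coding gene, and its member at chr9:100969347-100970139 was at 95 and 89.1, outside the gene by 11199 bp.

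Position along genes was not part of the rule, and here the members differed from the regions of all 3 lists. The midpoint of 646 members lay at most 1 kb from a protein-coding gene end, a share of 4.81% (95% Wilson interval 4.46 to 5.18). The share was 29.1% (28.6 to 29.5) among regions of all 3 lists and 12.3% among all union regions. It was 9.06% (7.99 to 10.3) in the opposite class. In the other classes found in fewer than 3 lists it was 3.11% for Halo-Sox2 only, 4.58% for Control only, 4.65% for Halo-Sox2a only and 5.28% for the regions missing only in Control. The midpoint was inside a gene of any kind in 53.5% of members (52.7 to 54.4), 65.6% of regions of all 3 lists and 51.5% of Control-only regions. This share was 60.5% over all union regions and 57.8% in the opposite class. It was 59.7% for Halo-Sox2 only, 60.4% for Halo-Sox2a only and 63.8% for missing only in Control. Of all members, inside genes or not, 17.3% lay 100 to 500 kb from the nearest protein-coding gene end and 4.38% over 500 kb away. These shares were 10.8% and 1.94% for regions of all 3 lists, and 16.7% and 3.32% for all union regions. They were 22.0% and 6.91% for Control only, 23.5% and 4.15% for Halo-Sox2 only and 20.3% and 4.31% for the opposite class. Both shares were lower than in members for Halo-Sox2a only, at 14.2% and 2.45%, and for missing only in Control. These intervals cover counting error only, and neighbouring regions are not independent.

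Read the other way, the share of Halo-Sox2a and Control shared regions that lacked a Halo-Sox2 peak was higher in each class of distance than in the one nearer the gene end. It was 5.03% (646 of 12842) within 1 kb, 23.0% at 1 to 5 kb, 29.4% at 5 to 20 kb and 30.5% at 20 to 50 kb. It was 32.3% at 50 to 100 kb, 33.8% at 100 to 500 kb and 42.0% (589 of 1401) beyond 500 kb. The intervals of neighbouring classes overlapped between 5 and 500 kb and did not overlap at the other steps. Shared regions at gene ends lay high in the Control list, with 3564 in its highest decile and 192 in its lowest, so the share was read again within deciles of that list. For Control percentiles 50 to 60, 8.20% of shared regions at gene ends lacked a Halo-Sox2 peak (77 of 939), against 27.4% inside genes and 36.5% outside them. For percentiles 80 to 90, the shares were 0.558%, 6.90% and 15.3%. For the lowest decile, they were 43.8%, 55.6% and 58.2%. In each of the 10 deciles the share was lowest at gene ends and highest outside genes.

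**Figure D2:**
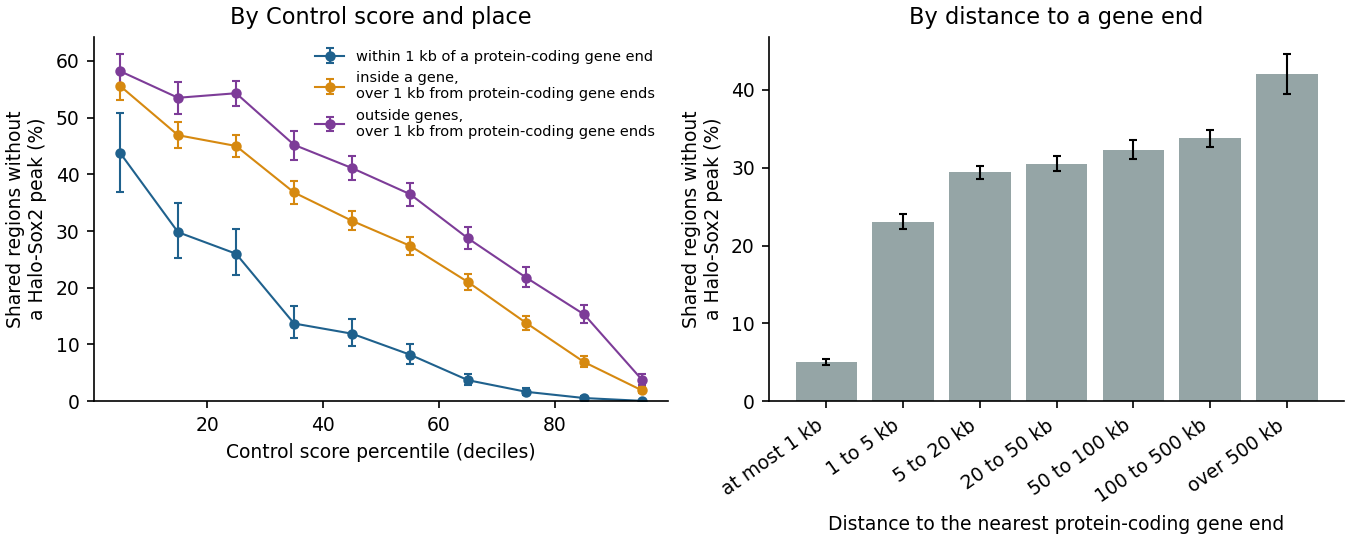
Percent of regions shared by Halo-Sox2a and Control that had no Halo-Sox2 peak, by decile of the Control score percentile and place (left, lines) and by distance to the nearest protein-coding gene end (right, bars), with 95% Wilson intervals. The line for gene ends lies lowest in every decile, and the bars go from 5.03% within 1 kb to 42.0% beyond 500 kb.

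The score was itself related to the share over all shared regions, as a description. From the lowest to the highest decile of the Control list, 55.8%, 47.4%, 46.8%, 36.6%, 32.5%, 27.8%, 19.8%, 12.9%, 6.81% and 1.42% lacked a Halo-Sox2 peak. In the Halo-Sox2a list the lowest and highest deciles gave 70.4% and 0.558%.

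The start and the end of genes differed. The strand was known for 17274 of 21631 protein-coding genes (79.9%), through the promoter windows. At 5′ ends, 291 of 9349 shared regions were members (3.11%, 2.78 to 3.48). At 3′ ends it was 218 of 998 (21.8%, 19.4 to 24.5). Among regions above Control percentile 50 the shares were 0.993% (80 of 8058) and 11.8% (64 of 544). Both pairs of intervals were apart.

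Of the 10 highest-scored members on protein-coding gene ends, Plac8 came first and was the 1 at a 5′ end of known strand. The Plac8 member, chr5:100571965-100572617, had a Halo-Sox2a score of 384 (percentile 90.2) and a Control score of 231 (percentile 85.5), and the nearest Halo-Sox2 peak was 53.1 kb away. The others of known strand, at Trh, Acyp1, Mier1, Proser2 and Prx, lay at 3′ ends. The member beside Trh, the gene of thyrotropin-releasing hormone, was chr6:92241171-92241751, with scores of 287 and 233 in the Halo-Sox2a and Control lists. The member beside Acyp1, an acylphosphatase gene, was chr12:85270928-85272142, with a Halo-Sox2a score of 346 and a Control score of 186, and a Halo-Sox2 peak lay 0.0680 kb from it. The members at Kcnu1, Kctd4, Slc25a32 and Rab4a lay at gene ends whose strand was not known here.

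Promoter windows, which span 250 bases before to 50 after an annotated start, also one inside the gene, were covered by a member in 396 cases and by a region of all 3 lists in 11137. The windows under members were 3.43% of these together (3.12 to 3.78). This is a share of windows, and the 24.3% over all shared regions is a share of regions. The windows under members were poor in CpG. Their median was 7 CpG (quartiles 5 and 12), against 21 (13 and 29) under regions of all 3 lists, 13 under the opposite class and 7 over all 32619 windows used. The other classes found in fewer than 3 lists were as low, with medians of 7 for Control only, 7 for missing only in Control, 6 for Halo-Sox2a only and 4.50 for Halo-Sox2 only. At least 15 CpG were present in 18.2% of the windows under members and 71.9% of those under regions of all 3 lists. The median GC content was 53.7% and 62.0%. The contrast printed above between Plac8 and Fbxo44 has the same direction, and Fbxo44 was chosen at the median CpG count of its class.

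The share of these windows that lay under members was lower at higher CpG counts, from the class of 0 to 4 CpG to that of 20 or more. It was 17.4% for windows with 0 to 4 CpG, 12% for 5 to 9, 4.24% for 10 to 14, 1.87% for 15 to 19 and 0.596% for 20 or more. The share was read again in 2 ranges of the Control list. In percentiles 0 to 50 the shares were 30.4%, 32.4%, 17.9%, 11.8% and 4.29%. In percentiles 50 to 100 they were 10.5%, 5.19%, 1.54%, 0.486% and 0.145%. Within both ranges, windows with 20 or more CpG had the lowest share.

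**Figure D3:**
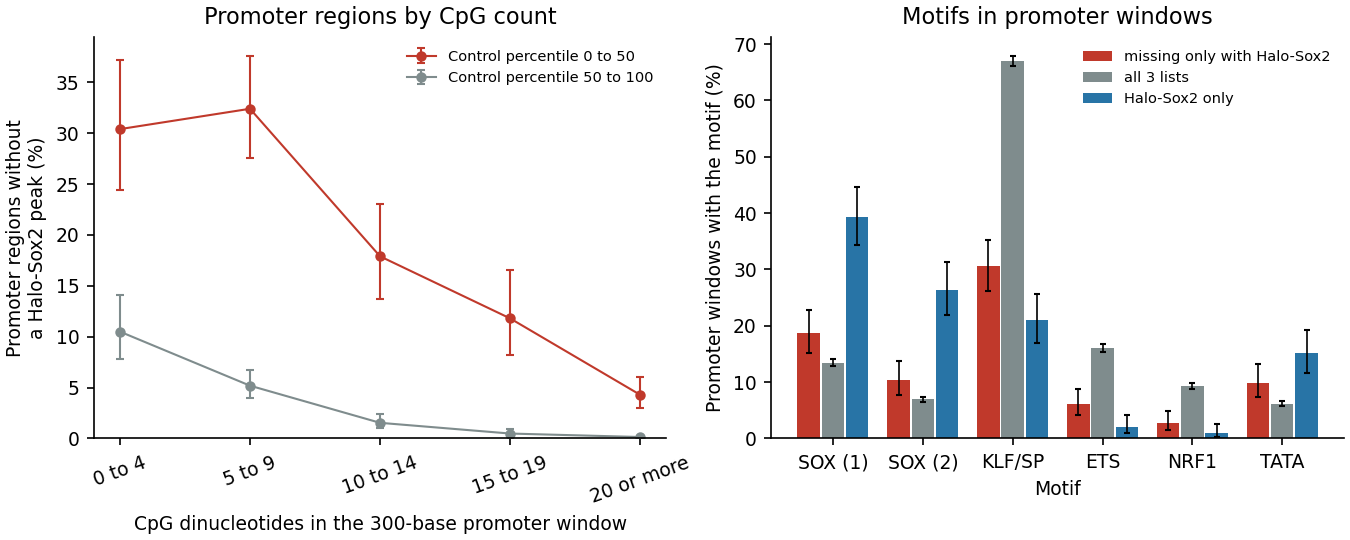
Left, percent of promoter windows under regions shared by Halo-Sox2a and Control whose region had no Halo-Sox2 peak, by CpG count of the 300-base window and Control percentile range. Right, percent of promoter windows of each class with a motif, where SOX (1) is ACAAAG and SOX (2) is ACAATG. Bars and points carry 95% Wilson intervals, and the CpG-rich windows are lowest on the left, at 4.29% and 0.145%.

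The windows were searched on both strands for 10 short motifs, and a match is only a description of letters. The SOX core ACAAAG was in 18.7% of the windows under members (15.2 to 22.8), 13.4% of those under regions of all 3 lists and 18.7% of all windows. The SOX core ACAATG was in 10.4% (7.72 to 13.7), 6.95% and 12.2%. Members were therefore close to all windows for both cores. Windows with a peak only in the Halo-Sox2 list held these cores more often, at 39.3% and 26.3%. Those with peaks in both transgene lists and none in Control were at 31.1% and 14.9%. The octamer ATGCAAAT, bound by POU factors such as Oct4, was in 2.02% of the windows under members and 1.75% of all windows. The SOX-OCT motif, searched as the ACAATG core on its opposite strand followed, after 1 free base, by ATGCA, was in 1 of 396 windows under members and 0 of 11137 under regions of all 3 lists, and in 9 of all 32619 windows (0.0276%). A count of 1 does not set the members apart. That 1 window is the Nanog promoter printed above.

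Motifs of CpG-rich promoters were less frequent under members than under regions of all 3 lists. The KLF and SP box GGGCGG was in 30.6% (26.2 to 35.3) against 67.0%, the ETS motif CCGGAAG in 6.06% against 16.1%, and the NRF1 motif in 2.78% against 9.34%. Over all windows these were 35.9%, 8.92% and 4.63%. All 3 motifs contain CpG. Other classes found in fewer than 3 lists were also lower than the regions of all 3 lists, with GGGCGG in 33.8% for Control only, 33.4% for missing only in Control, 32.1% for Halo-Sox2a only, 21.0% for Halo-Sox2 only and 50.0% for the opposite class. The TATA box TATAAA was in 9.85% against 6.12% and in 13.7% of all windows. The CCAAT box was in 37.6% of windows under members, 38.0% under regions of all 3 lists and 37.6% overall. The E-box CACGTG, which also contains CpG, was in 9.34% (6.85 to 12.6), 10.5% and 7.20%, so this motif was not clearly less frequent under members.

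Members were found on every chromosome used. The share of shared regions without a Halo-Sox2 peak ran from 19.5% on X (299 of 1533) to 27.0% on chromosome 6 (869 of 3222). Along the chromosomes, the region after a member was itself a member in 27.4% of cases (3676 of 13435), against 23.3% (9761 of 41943) after a region of all 3 lists. Beyond 1 kb from gene ends, the shares were 32.9% and 29.1%. A member had no other member as its neighbour among the shared regions in 7183 cases (53.4%). Only 75 runs of at least 5 neighbouring members were present, with 417 members (3.10%). In 1966 windows of 1 Mb with at least 10 shared regions, the median share was 23.5% (quartiles 17.4 and 31.6). It was 0 in 17 windows and above 50% in 35.

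Of the 5 longest runs, 4 spanned no protein-coding gene. The run at chr8:51171983-52006262 spanned 834 kb with 10 members and no protein-coding gene. It held 14 Control-only regions and 6 regions with a Halo-Sox2 peak, so Halo-Sox2 peaks were present in it at other places. The run at chr16:53291967-54984151 spanned 1692 kb with 10 members, again without a protein-coding gene. Runs of 8 members lay at chr6:78516161-79285359 and chr12:63351058-64077170. A run of 8 at chr17:38026271-40265052 spanned 21 protein-coding genes, of which 10 were olfactory receptor genes.

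The Halo-Sox2 scores of regions of all 3 lists were read by their distance to the nearest member. These regions are not members, but each was kept because it holds a called Halo-Sox2 peak. Their Halo-Sox2 scores are therefore cut off from below by the same calls, and the values are a description. The median of the Halo-Sox2 percentile minus the Control percentile was -2.14 for the 2213 regions within 5 kb of a member. It was -5.52 at 5 to 20 kb, -5.42 at 20 to 100 kb and -5.00 beyond 100 kb. For regions over 1 kb from gene ends the medians were -2.21, -6.88, -6.51 and -5.36. The difference was thus smallest within 5 kb and largest at 5 to 20 kb in both readings. The median Control percentile over all these regions was also lowest within 5 kb, at 58.2, against 69.1, 68.4 and 69.1 in the farther classes. The difference was not read at matched Control percentile. For Halo-Sox2a minus Control, over all these regions, the medians were 3.64, 2.06, 1.83 and 1.11.

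Members lay inside 4076 protein-coding genes, and 114 genes held at least 5. Counts per gene follow the length of the gene and the number of its shared regions, so both are given, and the share over shared regions inside genes and over 1 kb from gene ends was 27.3%. These genes were picked for their number of members. Pde4d, a cAMP phosphodiesterase gene of 1302 kb, held 12 members among 39 shared regions (30.8%). Robo1, an axon guidance receptor gene, held 11 of 23 (47.8%) over 1020 kb. Ptprg, a receptor tyrosine phosphatase gene of 689 kb, held 9 of 25 (36.0%). Tenm3 held 10 of 35 (28.6%) over 1297 kb, Macrod2 held 9 of 32 (28.1%) over 1998 kb and Arhgap26 held 8 of 28 (28.6%) over 775 kb. The shares of Pde4d, Tenm3, Macrod2 and Arhgap26 lay close to that 27.3% or somewhat above it. The comparison is not like for like. The counts per gene include regions within 1 kb of gene ends, where 5.03% of shared regions were members, and the 27.3% leaves them out. With gene ends kept, 7194 members and 27508 regions of all 3 lists had their midpoint inside a gene of any kind, a lower share of members. The highest count was that of the gene model Gm37013, with 13 of 76 (17.1%) over 889 kb. Gm38666 and Gm38667 held 12 of 73 each (16.4%) over 874 and 868 kb. These 3 models overlap on chromosome 18 and share members.

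Cbfa2t2 was the shortest of these genes, at 103 kb. It encodes a transcriptional co-repressor of the ETO family that has a role in pluripotency. Inside it, 10 of 14 shared regions were members (71.4%), and the other 4 had peaks in all 3 lists. The gene also held 15 Control-only regions and none that was in only the Halo-Sox2 list or only the Halo-Sox2a list. The members were low in both lists. Their Control percentiles ran from 3.32 to 60.2 with a median of 18, and their Halo-Sox2a percentiles from 0.379 to 56.8 with a median of 13.2. The 4 regions of all 3 lists inside the gene included the one at its lower-coordinate end, chr2:154436055-154437117, at percentile 74.8 for Control, 87.4 for Halo-Sox2a and 77.5 for Halo-Sox2. The member with the highest Control percentile was chr2:154467198-154467662, with a Halo-Sox2a score of 121 and a Control score of 106.

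**Figure D4:**
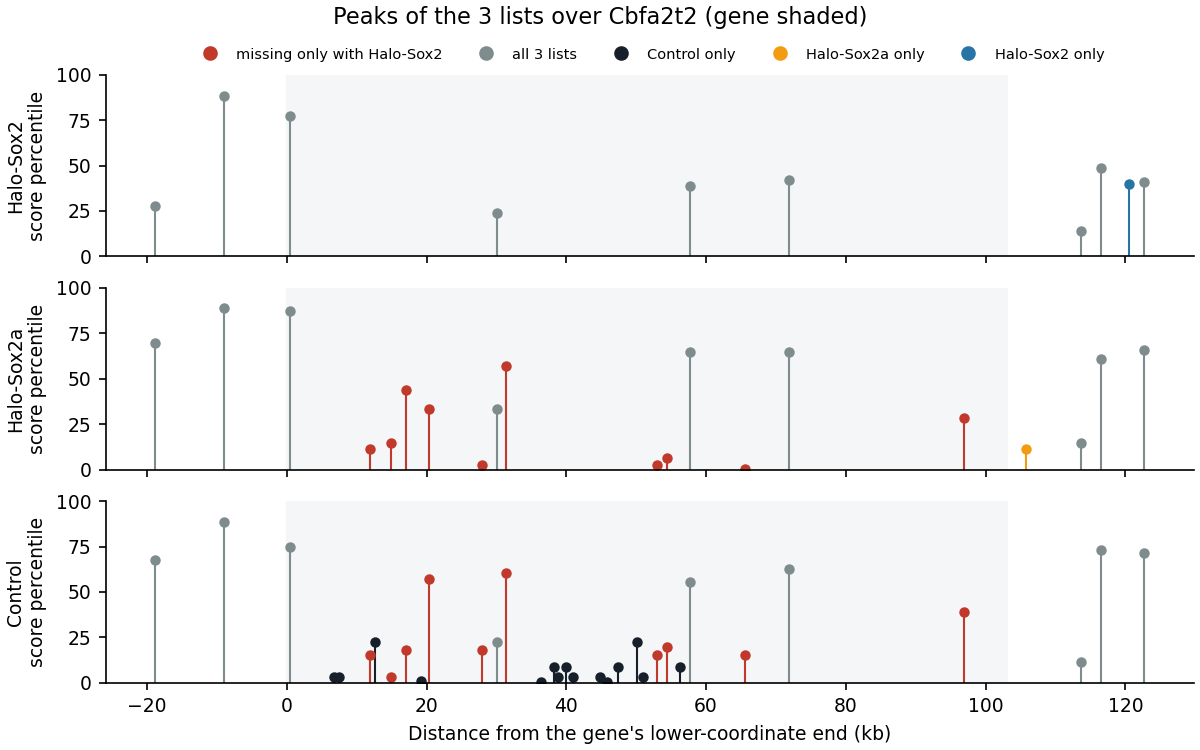
Peaks of the 3 lists, with Control at the bottom and Halo-Sox2 at the top, over Cbfa2t2, shaded, and its flanks. The x axis is the distance in kb from the lower-coordinate end of the gene, the y axis is the score percentile within the list, and colours give the class. The 10 members and 15 Control-only regions fill the gene in the Control panel, where the Halo-Sox2 panel shows 4 peaks.

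Gene lists for pluripotency, lineages and pathways were read for shared regions within 50 kb of each gene. Except for Pou5f1 and Klf4, genes are named for having most members in their list, so their own counts are picked and do not mark them out. Near 24 genes of naive pluripotency, 48 of 203 shared regions were members (23.6%, 18.3 to 29.9), beside 24.3% over all shared regions, and 20 of the 24 genes had at least 1. The median percentiles of these members were 34.3 in the Control list and 37.3 in the Halo-Sox2a list, beside 38.0 and 35.4 for all members. Dppa5a, a marker of naive cells, had 4 of 8, and Utf1, a chromatin-bound factor of pluripotent cells, had 4 of 13. The Dppa5a member chr9:78364639-78365136, 2.16 kb from the gene, was at percentiles 59.6 and 86.9 in the Halo-Sox2a and Control lists. Another, chr9:78368007-78368275, lay inside the gene at 55.3 and 53.9. Esrrb, a nuclear receptor of naive cells, had 3 of 15, with 2 inside the gene, and Fbxo15 had 3 of 10. Near Pou5f1, none of 7 shared regions was a member, and near Klf4, none of 5.

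The neural list was lower than the background. Near 20 neural genes, 12 of 117 shared regions were members (10.3%, 5.96 to 17.1). Beyond 1 kb from gene ends, it was 11 of 85 (12.9%, 7.38 to 21.7), beside 30.1% (12795 of 42556) over all such shared regions. Both intervals lay below their background. The gene lists were not read at matched Control percentile, and over all shared regions the share of members was lower at higher Control percentiles. Whether the neural share differs at equal score was therefore not tested. The neural list was also 1 of 12 lists read, and the intervals treat neighbouring regions as independent, which they are not. Pou3f2 and Tubb3 had 2 members each, and none was inside the gene. Among 10 genes of the LIF and STAT3 pathway, which supports self-renewal, 8 of 62 were members (12.9%, 6.69 to 23.4), and 8 of 42 (19%, 9.98 to 33.3) beyond 1 kb from gene ends, where the interval included the background. Pim1, Pim3, Socs3 and Tyk2 had 2 members each.

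In the other 9 lists the interval included the background, both over all shared regions and beyond 1 kb from gene ends. The formative and primed list had 21 of 105 (20.0%). There, Lef1, a Wnt-responsive factor, had 6 of 18, and Grhl2, an epithelial factor, had 5 of 14. Otx2, a factor of formative cells, had 4 of 9, and Dnmt3b had 2 of 11. The Lef1 member chr3:131156403-131156918 lay inside the gene at percentiles 69.8 and 46.4 in the Halo-Sox2a and Control lists. The mesendoderm list had 13 of 76 (17.1%), primitive endoderm 20 of 82 (24.4%) and trophoblast 16 of 81 (19.8%). The Wnt pathway had 17 of 84 (20.2%), with 5 of 9 near Axin2, a negative regulator and target of the pathway, and 2 of 21 near Tcf7l1. The FGF and ERK pathway had 21 of 104 (20.2%), with 4 of 12 near Spred2, an inhibitor of ERK signalling. The subunits of the BAF chromatin remodeller had 21 of 112 (18.8%), with 4 of 16 near Arid1b, 3 of 5 near Smarce1 and 2 of 7 near Smarca4. The 3 near Smarce1 lay outside the gene, by 1.74, 13.2 and 45.8 kb. The germline list had 8 of 39 (20.5%), and the fibroblast list had 8 of 38 (21.1%).

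**Figure D5:**
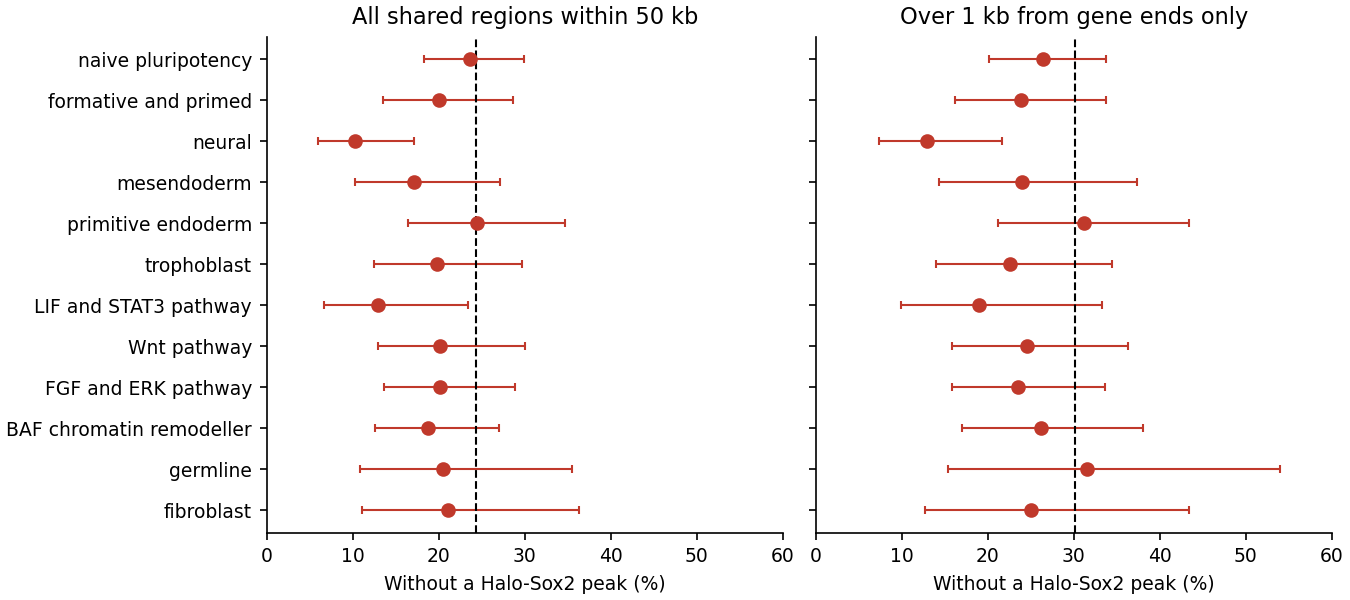
Percent of regions shared by Halo-Sox2a and Control within 50 kb of the genes of each list that had no Halo-Sox2 peak, over all such regions (left) and those over 1 kb from protein-coding gene ends (right). Points are shares with 95% Wilson intervals, and dashed lines are the background of 24.3% and 30.1%. The neural list lies below the line in both panels.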

How the data were processed

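Accessibility was measured by ATAC-seq in 3 libraries of mouse embryonic stem cells, 1 per group, grouped by the labels. The authors deposited 1 peak list per library, each peak with a position, a name and a score. This score is a whole number that the authors deposited with no scale stated. Per the submitters' processing notes, the build was mm10, which is GRCm38, and the tools included MACS2 3.0.0a7, MACS3, STAR, SAMtools and deepTools 3.3.0. Thresholds, and whether read ends were shifted for Tn5, are not given in the sources used here. Peak names carry 1 library each. Read depth is unknown.

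Peaks were merged into union regions at 1 bp of overlap or more, and coordinates were made 1-based. Genes came from the RefSeq table for GRCm38.p6 and promoter windows from the RefSeq promoter table, which held none on chromosome 18. Region sequence beyond these windows was not analysed here. Shares carry Wilson 95% intervals. Python 3.11.15, pandas 2.3.3, numpy 2.4.6, SciPy 1.17.1 and matplotlib 3.10.9 were used, and the region classes were tested on simulated data.

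The members, gene lists and tests were chosen with earlier results of these data known. Named were the 12 members with the highest mean percentile, the 10 such members within 1 kb of protein-coding gene ends, the 5 longest runs, the 10 protein-coding genes holding most members, and up to 4 genes per list with most members within 50 kb, of which 1 is not reported here. Printed promoters were the 4 members on promoter windows with the highest mean percentile. Nanog, Pou5f1 and Klf4, whose loci lie outside these rules, were named after their values were seen. Alternatives were other overlap minimums, score minimums, lists of equal size and other distances.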

Additional observations from a re-analysis of the deposited data

How the results depend on the processing

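No paired analysis was possible because each group was 1 library, and for the same reason no library could be left out. Of 87 values under alternatives, 59 moved by less than their counting interval, or by less than 1.5 times for a count, and 28 moved more. An overlap of at least 50% of the shorter peak gave a missing share of 23.8% and median percentiles of 38.9 (Control) and 36.4 (Halo-Sox2a). A score of at least 2 times the lowest gave 22.9%, 41.3 and 38.1. With percentile 50 or above required in every list, 7785 regions (26.9%) met the rule and 961 were in the opposite class. Of the 7785, 11.0% were at gene ends and 56.8% inside genes, with medians of 68.4 and 67.0. Halo-Sox2 peaks under that minimum count as missing there, so some of the 7785 do hold a Halo-Sox2 peak. With that minimum for Halo-Sox2a and Control only, there were 2307 (7.96%) and 3557 in the opposite class, which counts Halo-Sox2a peaks under that minimum as missing, with 3.21% at gene ends, 49.3% inside genes, and medians of 67.9 and 64.8. Lists of equal size gave 29.2%, 6.35%, 55.3%, 41.3 and 42.4, with 15241 regions and 2121 in the opposite class. They were made by dropping the lowest-scored peaks of the longer lists, and dropped peaks count as missing. A gene-end distance of 2.5 kb gave 10.3%, and protein-coding genes alone held 44.4%. Within 10 kb the share was 18% for naive pluripotency and 14% for primitive endoderm, and the other gene list values stayed within their intervals. The count of gene lists beyond 1 kb from gene ends was chosen after seeing the data. Unknown depth limits every missing peak: a region without one may lie just under the threshold of its list.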
